A study of Homo sapiens with 21 samples.

Results

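Nilotinib alone was compared with its DMSO control in Hs578T cells, an established human cell line from a triple-negative breast cancer, that is, a tumour without oestrogen and progesterone receptors and without amplified HER2. The comparison used the 6 libraries labelled DMSO and NIL, 3 each, of the 21 in the series, and all 16036 of the 28395 listed genes that passed a filter on low counts. Cells had received DMSO or 1 µM nilotinib and were collected 8 h after treatment for polyA-selected, unstranded RNA sequencing. A further 3 groups of 3 libraries served where the nilotinib effect was set beside another treatment. They had received 3.16 µM lapatinib, which inhibits EGFR and HER2, or 0.1 µM THZ531, which inhibits the transcriptional kinases CDK12 and CDK13, or 0.1 µM THZ531 with 1 µM nilotinib. The filter, the scaling and the estimate of spread behind the p-values drew on all 21 libraries. These included cells given 0.1 µM THZ531 with 3.16 µM lapatinib, or 1 µM THZ531 alone. The study profiled transcription to ask whether anything besides inhibition of the efflux pump ABCG2 adds to the effect of these kinase inhibitors on the response to THZ531. All libraries came from 1 cell line, and the labels tell replicates apart only by number; a legend of the study describes 3 independent experiments, so the p-values measure the spread between those experiments.

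Nilotinib was developed against the kinase ABL in its leukaemia fusion BCR-ABL, and it also binds DDR collagen receptors, PDGF receptors, KIT, CSF1R, the stress kinase MAP3K20 (ZAK), p38 kinase MAPK14 and the quinone reductase NQO2. The integrated stress response is a pathway in which several kinases phosphorylate the translation factor eIF2, which slows general translation while the mRNA of the transcription factor ATF4 is translated more. ATF4 with CEBP partners then raises genes of amino acid uptake, amino acid synthesis and tRNA charging. TXNIP is an arrestin-family protein that binds thioredoxin and restrains glucose uptake, and its transcription follows glucose through the factors MondoA and ChREBP.

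The 6 libraries held between 106023299 and 112229052 counts, and the 21 libraries between 97612207 and 112229052. Nilotinib replicate 1 stood apart from the other 2 of its group, with 93 of 10913 genes of at least 1 log2 CPM (counts scaled to library size by TMM, the trimmed mean of M-values) more than 1.5-fold from the mean of the others, against 37 for replicate 2 and 33 for replicate 3. DMSO replicate 2 stood as far from its own group, with 93 such genes against 27 and 20. On the first principal component of the 6 libraries, which held 57% of their variance, nilotinib replicate 1 was at 15.3, replicates 2 and 3 at 1.83 and -0.21, and the DMSO replicates at -3.46, -11.5 and -1.99. No pair of replicates agreed within sampling noise, so none was counted as a repeat. Of 8 mesenchymal markers, VIM was at 6845 ± 281 CPM in DMSO and 7476 ± 14.8 CPM with nilotinib (mean ± SD, n = 3). CDH2 was at 531 ± 16.1 and 523 ± 6.06 CPM. The epithelial cadherin CDH1 was at 0.205 ± 0.0391 and 0.213 ± 0.0285 CPM. The oestrogen receptor ESR1 was at 0.364 ± 0.0297 and 0.440 ± 0.0559 CPM, and PGR had at most 4 counts in a library. These markers were picked from longer lists and do not describe the level of every member. Of 7 epithelial markers 5 were tested, all with a positive log2 FC and a median of 0.18, and 2 had an unadjusted p under 0.05, KRT8 (0.18) and ESRP1, at 0.218, 0.147 and 0.366 CPM in DMSO and 1.22, 0.332 and 0.276 CPM in the 3 nilotinib libraries. KRT19 had at most 1 count in a library. No member of the mesenchymal, epithelial, hormone receptor, leukocyte or endothelial marker lists was called between DMSO and nilotinib. Mitochondrially encoded mRNAs took 1.25% ± 0.0896 of counts in DMSO and 1.40% ± 0.149 with nilotinib (SD, n = 3), a difference with a two-sided exact permutation p of 0.2, where 3 libraries against 3 cannot go below 0.1.

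After 8 h of nilotinib 55 genes were called, 6 of them changed by more than 2-fold, and the number called depended on the test used. With all 21 libraries in 1 edgeR quasi-likelihood fit and Benjamini-Hochberg adjustment, 39 genes were higher and 16 lower with nilotinib at an adjusted p-value under 0.05, which are 0.243% and 0.0998% of the genes tested. The rises ran from a log2 fold change (FC) of 0.23 to 1.40 with a median of 0.53, the falls from -0.30 to -1.81 with a median of -0.66, and adjusted p-values from 0.00098 to 0.0485. In all 55 genes the 3 nilotinib libraries and the 3 DMSO libraries did not overlap, whereas over all genes tested every nilotinib library lay above every DMSO library in 10.8% and below in 9.82%. At an unadjusted p under 0.05, 826 genes were higher (5.15%) and 724 lower (4.51%).

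On the same 21 libraries DESeq2's Wald test called 198 genes higher and 76 lower and limma voom with quality weights 523 and 341, and both called all 55 genes of the edgeR test. The size of the edgeR set also rested on single libraries. Nilotinib replicate 1 was the highest of the nilotinib libraries in 32 of the 39 rises and the lowest in 12 of the 16 falls. Without it 8 genes were higher and 3 lower. Leaving out DMSO replicate 1, 2 or 3 left 8, 14 or 6 higher and 1, 6 or 2 lower, while leaving out nilotinib replicate 2 or 3 gave 63 or 45 higher and 12 or 14 lower. When libraries were scaled to their 13 mitochondrially encoded mRNAs, which lowered the median log2 FC of all genes to -0.18, 3 genes were higher and 16 lower.

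TXNIP (gene ID 10628, chr1:145992435-145996579, GRCh38) had the largest fall. Its level was 40.3, 35.5 and 38.6 CPM in DMSO replicates 1, 2 and 3 and 3.33, 14.8 and 14.6 CPM in nilotinib replicates 1, 2 and 3, the order used for all values by library that follow. Every nilotinib library was below every DMSO library, and replicate 1 was far below replicates 2 and 3. The log2 FC was -1.81 (SE 0.33, adjusted p = 0.0196). It was -1.38 (adjusted p = 0.00756) without nilotinib replicate 1. A fit of the 6 libraries alone gave TXNIP an adjusted p of 0.107, and why the call was lost there was not tested. ATF4 (gene ID 468, chr22:39520559-39522686), the transcription factor of the integrated stress response, moved the other way, from 78.1, 86 and 80.3 CPM in DMSO to 261, 116 and 118 CPM with nilotinib. Its nilotinib replicates 2 and 3 were close to each other and above all DMSO libraries, and replicate 1 was far above both. The log2 FC of ATF4 was 1.02 (SE 0.20, adjusted p = 0.0266) with all libraries, 0.52 (adjusted p = 0.0114) without nilotinib replicate 1, and its adjusted p was 0.149 in the fit of 6 libraries.

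Promoter sequence is shown for TXNIP and for 4 genes of the stress response or close to it, because glucose and ATF4 act on known short elements there. The bases lie upstream of the transcription start and were read from RefSeq (GRCh38.p14). Capitals mark a pair of CACGAG letters 5 bases apart in TXNIP, of the kind that glucose-responsive Mondo factors bind, which begins 88 bases before the start, and the letters TGATGNAA, the composite site that ATF4 and CEBP factors bind, in JDP2, MTHFD1L, CHAC1 and ASNS. CHAC1 carries it on the opposite strand. The pair in TXNIP was picked after the data were seen, and so were MTHFD1L, CHAC1 and ASNS.
TXNIP, chr1:145996611-145996707 (- strand): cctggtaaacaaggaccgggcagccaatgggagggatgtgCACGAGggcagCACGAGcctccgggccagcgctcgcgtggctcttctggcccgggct
JDP2, chr14:75427966-75428021 (+ strand): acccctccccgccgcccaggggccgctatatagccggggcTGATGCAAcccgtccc
MTHFD1L, chr6:150866317-150866404 (+ strand): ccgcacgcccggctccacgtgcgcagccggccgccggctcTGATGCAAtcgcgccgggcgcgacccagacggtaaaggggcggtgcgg
CHAC1, chr15:40953222-40953309 (+ strand): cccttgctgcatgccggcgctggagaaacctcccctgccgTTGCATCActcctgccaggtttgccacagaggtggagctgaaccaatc
ASNS, chr7:97872429-97872516 (- strand): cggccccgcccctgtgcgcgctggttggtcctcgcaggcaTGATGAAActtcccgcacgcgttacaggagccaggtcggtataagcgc

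Windows of the 250 bases before the start were searched on both strands. TGATGNAA was in the windows of 3.886% of 27305 RefSeq genes and of 2.51% of the 12271 tested genes with a window, in 6 of 27 genes of the integrated stress response list, in 3 of the 30 genes called higher that had a window (JDP2, MTHFD1L and TMEM154) and in 0 of 11 called lower. The windows of ATF4 and ADM2 did not hold these letters. CACGTG, the E-box that MondoA-type factors can bind, was in 7.728% of the RefSeq genes and 10.635% of the tested genes with a window. It was in 3 of the 30 called higher (ATF4, MTHFD1L and MICAL2) and in 2 of the 11 called lower (CDKN2C and TNFRSF21). It overlapped no TGATGNAA match in the sequences shown. The CACGAG pair was in 2 of the 27305 genes, 0.007%, and in 0.016% of those tested. These matches describe letters and no binding was measured.

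The rises included 3 members of the integrated stress response list. JDP2, an AP-1-family repressor, was at 16.8, 18.1 and 18.4 CPM in DMSO and 38.5, 23.4 and 24.9 CPM with nilotinib (log2 FC 0.70, SE 0.13, adjusted p = 0.0197). ADM2, a secreted peptide of the adrenomedullin family, was at 0.895, 0.958 and 0.945 CPM and 3.69, 1.74 and 1.59 CPM (log2 FC 1.33). As with ATF4, replicate 1 was the highest for both and replicates 2 and 3 still lay above all DMSO libraries. MTHFD1L, a mitochondrial enzyme of folate metabolism that was on no list, had the same order, from 23.7, 22.3 and 24.5 CPM to 45.8, 30.6 and 29.9 CPM (log2 FC 0.59).

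A second set of rises was of like size in the 3 nilotinib libraries. SPHK1, which makes sphingosine phosphate, had the smallest adjusted p, with 28.8, 32.1 and 31 CPM in DMSO and 51.7, 47.4 and 45.6 CPM with nilotinib (log2 FC 0.65, SE 0.077, adjusted p = 0.00098). RAB7B, a GTPase of endosome and lysosome traffic, rose from 6.17, 6.09 and 6.22 to 11.1, 9.76 and 11 CPM (log2 FC 0.79, adjusted p = 0.00278). SPOCD1 stood at 49.6, 56.5 and 51.6 and then 74.5, 74.7 and 74.4 CPM (log2 FC 0.50, adjusted p = 0.00286). The nilotinib values of these 3 genes lay close together and clear of DMSO. GFPT2, which feeds the hexosamine pathway, was at 40.5, 39.7 and 37.3 and 56.2, 53.4 and 58 CPM (log2 FC 0.51), and LPCAT4, a lysophospholipid acyltransferase, at 7.54, 8.55 and 8.13 and 12.2, 12 and 11.6 CPM (log2 FC 0.56). ARHGAP22 was at 15, 18.1 and 16.8 and 26.1, 24.3 and 23.9 CPM (log2 FC 0.58); its region overlaps that of MAPK8, and unstranded reads from the stretch they share cannot be told apart. In these 3 genes too replicate 1 lay near its fellows.

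MAP2K6 and FGF1 were low in level and large in fold. MAP2K6, a kinase that activates p38, had the largest log2 FC of the rises at 1.40 (SE 0.20, adjusted p = 0.00325), from 1.19, 0.949 and 1.13 CPM in DMSO to 3.13, 2.42 and 3.10 CPM. FGF1, a growth factor of the fibroblast family, went from 1.51, 1.34 and 1.34 to 2.77, 2.11 and 2.32 CPM (log2 FC 0.78). No nilotinib library of either gene reached down to DMSO. ETV4, an ETS factor that follows ERK signalling, was at 13.6, 14.1 and 14.6 and 16.8, 19.2 and 17.9 CPM (log2 FC 0.35), with replicate 1 the lowest of the nilotinib libraries, and its region overlaps DHX8. TRIB1, a pseudokinase that guides protein degradation, had a log2 FC of 0.50.

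GADD45A, a stress-induced gene of growth arrest, stood at 39.9, 48 and 41.2 CPM in DMSO and 86.4, 59.1 and 58.3 CPM with nilotinib (log2 FC 0.66), with replicate 1 well above the rest. RHOB, a stress-responsive small GTPase, was at 36.4, 36.2 and 37.1 and 65, 53.3 and 54.6 CPM (log2 FC 0.66, adjusted p = 0.00532), and all 3 nilotinib values cleared DMSO by a wide margin. CORO2B, an actin-binding coronin, went from 1.72, 2.32 and 2.37 to 4.48, 3.90 and 4.58 CPM (log2 FC 1.02, adjusted p = 0.00194). Smaller log2 FCs were measured for the actin-linked MYO7B (0.70), PDLIM7 (0.42), CSRP1 (0.33), LIMA1 (0.28) and MICAL2 (0.23).

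KCNG1, a modulatory potassium channel subunit, was at 41.3, 51.3 and 43.8 CPM in DMSO and 108, 67.8 and 67.9 CPM with nilotinib (log2 FC 0.84). IL1RL1, a receptor of the interleukin-1 family, was at 2.66, 2.26 and 2.19 and 4.55, 3.71 and 3.33 CPM (log2 FC 0.70), and PDCD1LG2, the PD-1 ligand PD-L2, at 9.76, 9.57 and 9.93 and 16.2, 13.3 and 12.9 CPM (log2 FC 0.53, adjusted p = 0.0485). Replicate 1 was the highest in all 3, most plainly for KCNG1. LAMA1, a laminin chain, was at 5.71, 5.50 and 4.87 and 9.18, 7.04 and 8.09 CPM (log2 FC 0.60), and the long non-coding RNA LINC01605 at 25.6, 26 and 26.6 and 43.3, 37 and 37.7 CPM (log2 FC 0.60). Both were clear of DMSO in every nilotinib library. Other rises, by log2 FC, were TMEM154 (0.50), PNMA8A (0.49), LZTS3 (0.48), DIXDC1 (0.46), the oxysterol-binding relative OSBPL6 (0.44), the interferon-inducible GTPase GBP3 (0.43), SEC14L2 (0.39), RFTN1 (0.30), whose region overlaps OXNAD1, the metalloproteinase inhibitor TIMP3 (0.28), ANKRD13A (0.27), which overlaps GIT2, and the chromatin protein HMGA1 (0.25).

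**Figure D1:**
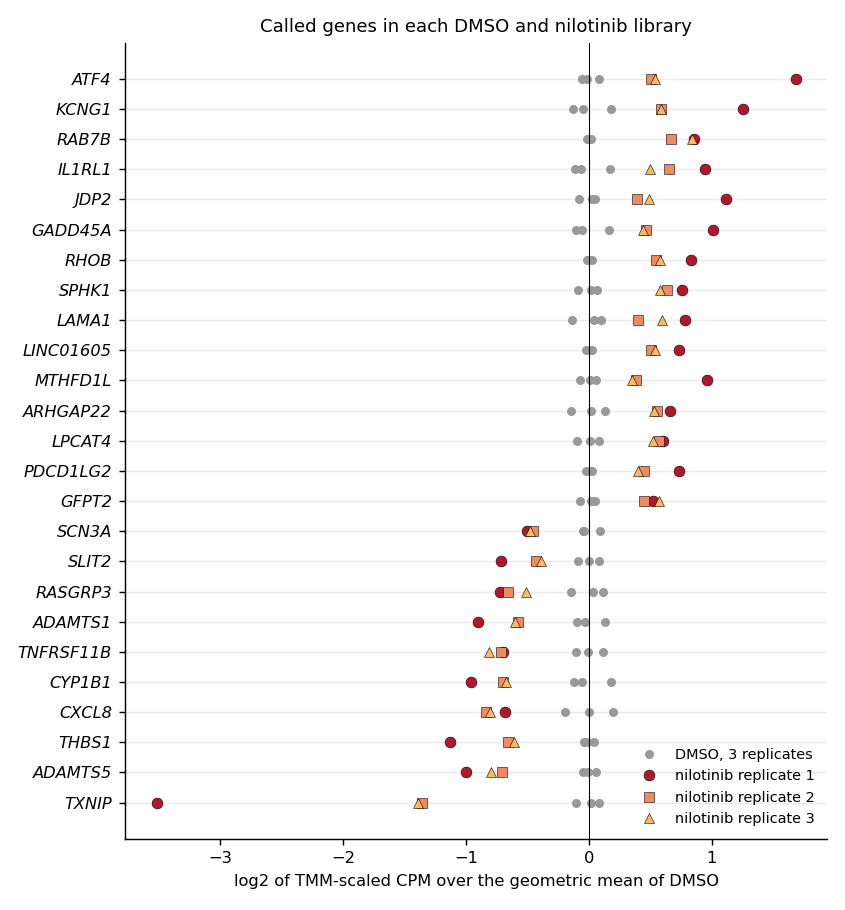
The 15 largest rises and 10 largest falls among called genes, leaving out those averaging under 1 log2 CPM; the x axis is the log2 of the CPM in each library over the geometric mean of DMSO. Nilotinib libraries lie clear of the grey DMSO points for every gene, and nilotinib replicate 1 lies farthest out for ATF4 and TXNIP.

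THBS1, which encodes thrombospondin-1, an adhesive glycoprotein that activates latent TGF-beta, was at 464, 481 and 454 CPM in DMSO and 213, 295 and 305 CPM with nilotinib (log2 FC -0.78, SE 0.16, adjusted p = 0.028). ADAMTS1 and ADAMTS5 are secreted proteases that cut proteoglycans. ADAMTS1 was at 60.7, 68.2 and 58.2 and 33.3, 41.7 and 40.9 CPM (log2 FC -0.69), and ADAMTS5 at 14.3, 15 and 13.9 and 7.21, 8.82 and 8.28 CPM (log2 FC -0.83). In all 3 genes replicate 1 was the lowest nilotinib library and no library of one group reached the other. SLIT2, a secreted guidance cue, was at 33.7, 35.7 and 31.6 and 20.5, 24.9 and 25.6 CPM (log2 FC -0.51).

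CXCL8, the neutrophil chemokine interleukin-8, was at 87.4, 66.5 and 76.1 CPM in DMSO, a group with some spread, and at 47.5, 42.7 and 43.5 CPM with nilotinib (log2 FC -0.78, SE 0.16, adjusted p = 0.0323). TNFRSF11B, the decoy receptor osteoprotegerin, was at 7.43, 6.38 and 6.86 and 4.23, 4.19 and 3.92 CPM (log2 FC -0.74). For both genes replicate 1 was not the lowest nilotinib library. CYP1B1, a cytochrome P450 induced by the aryl hydrocarbon receptor, was at 16.3, 13.2 and 13.8 and 7.42, 8.89 and 9.03 CPM (log2 FC -0.78, adjusted p = 0.00325). RASGRP3, which activates Ras, was at 4.34, 5.18 and 4.90 and 2.90, 3.04 and 3.35 CPM (log2 FC -0.63), and the sodium channel gene SCN3A at 112, 102 and 103 and 74.7, 77.4 and 76.1 CPM (log2 FC -0.48). All 3 nilotinib libraries were of like level in SCN3A.

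PTPRK, a receptor tyrosine phosphatase, had a large fold on few counts, with 2.81, 2.20 and 4.01 CPM in DMSO and 1.56, 1.09 and 0.510 CPM with nilotinib (log2 FC -1.51, SE 0.31, adjusted p = 0.0323). Its spread within each group was wide, and nilotinib replicate 1 was the nearest to DMSO. The other falls were CNTNAP5 (-0.64), the lipid phosphatase PLPP3 (-0.47), the bicarbonate transporter SLC4A8 (-0.39), CDKN2C, an inhibitor of cyclin D-dependent kinases (-0.37), and the death receptor TNFRSF21 (-0.30), all as log2 FC.

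Without nilotinib replicate 1, 11 of the 55 genes remained called, 8 higher and 3 lower. They were MAP2K6 (1.33), CORO2B (0.99), RAB7B (0.75), SPHK1 (0.60), RHOB (0.56), ATF4 (0.52), SPOCD1 (0.50), JDP2 (0.44), CYP1B1 (-0.69), TXNIP (-1.38) and PTPRK (-1.91), with the log2 FC from the remaining libraries. The change was smaller without that library in 46 of the 55 genes, and no gene changed direction. ADM2 moved from 1.33 to 0.84 and THBS1 from -0.78 to -0.64, and both lost the call (adjusted p = 0.27 and 0.237). Leaving out nilotinib replicate 1 and DMSO replicate 1 together, 0 genes were called in edgeR's test, with 699 at an unadjusted p under 0.05.

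**Figure D2:**
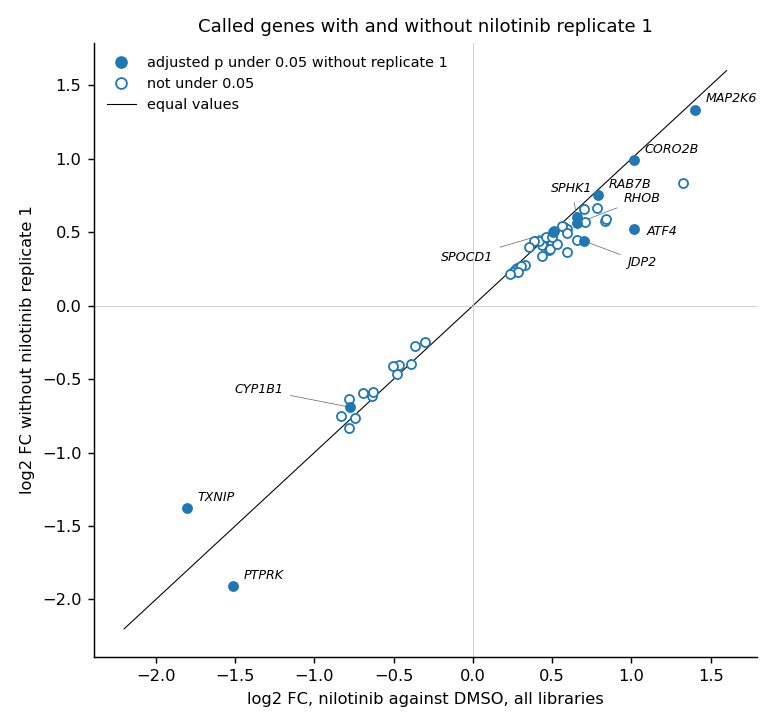
Log2 FC of nilotinib against DMSO for the 55 called genes with all libraries (x axis) and without nilotinib replicate 1 (y axis); filled points have an adjusted p under 0.05 without it and the line marks equal values. The 11 filled points are named, and ATF4 falls from 1.02 to 0.52.

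Across the integrated stress response list, 3 of 32 tested genes rose and 0 fell, against 0.243% and 0.0998% of all genes tested. The list's median log2 FC was 0.38 against -0.0019 over all genes tested, and 22 members had an unadjusted p under 0.05, all 22 higher, where 5.15% of all genes tested were higher at that threshold. This list, like the others, was chosen with earlier results of these data known. By library the median was 0.75, 0.17 and 0.19, so it was above 0 in each nilotinib library but several times larger in replicate 1, and it was 0.18 without that library. All 3 nilotinib libraries lay above all DMSO libraries in 19 members and below in 1, against 10.8% and 9.82% of all genes tested.

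Members that did not pass, chosen after their values were seen, also had replicate 1 as the highest nilotinib library. PSAT1, of serine synthesis, was at 103, 91.2 and 107 CPM in DMSO and 293, 134 and 137 CPM with nilotinib (log2 FC 0.90, adjusted p = 0.057). CHAC1, which degrades glutathione, was at 4.73, 4.63 and 4.77 and 19.9, 6.54 and 7.10 CPM, and ASNS, asparagine synthetase, at 48.9, 44.6 and 50.8 and 125, 57.6 and 60.8 CPM. SESN2, a leucine-sensing inhibitor of mTORC1, was at 10.9, 12.3 and 12 and 44.9, 16.1 and 17.7 CPM. In these 4 genes replicates 2 and 3 lay above all DMSO libraries, though by less than replicate 1, which was at least 2-fold above them. For DDIT4, another inhibitor of mTORC1, the nilotinib libraries were at 19.8, 6.48 and 7.38 CPM and DMSO at 7.83, 6.65 and 7.37 CPM, so that only replicate 1 lay above the DMSO range. STC2, CTH and ATF5, which are on the same list, had log2 FCs of -0.066, -0.084 and -0.14.

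**Figure D3:**
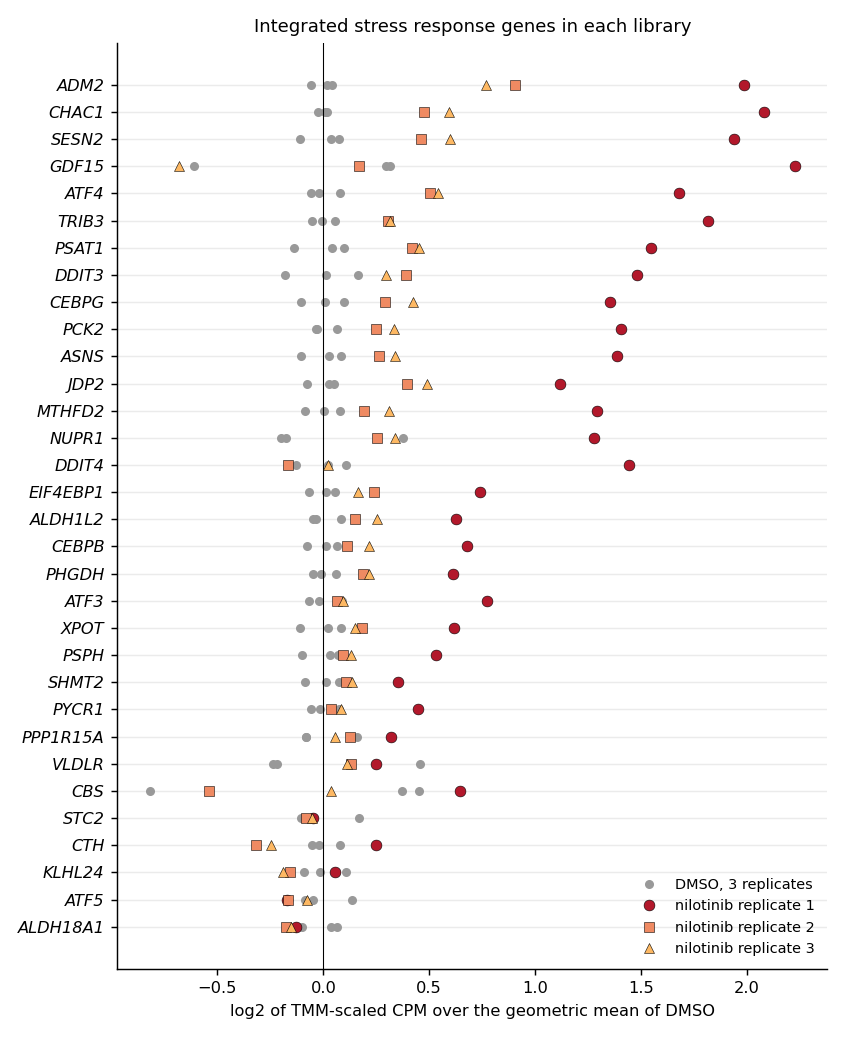
The 32 tested genes of the integrated stress response list, as log2 of the CPM in each library over the geometric mean of DMSO. Replicate 1 of nilotinib (circles) lies to the right of replicates 2 and 3 for most genes, and these lie between DMSO and replicate 1 for ATF4, PSAT1 and ASNS.

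The lists next to this pathway had no called member. Of 11 amino acid transporters 5 had an unadjusted p under 0.05, all higher (5.15% over all genes), with a median log2 FC of 0.18. The 4 with the smallest p were SLC7A5, which imports large neutral amino acids (95.2, 101 and 95 CPM in DMSO and 272, 119 and 123 CPM with nilotinib), SLC1A4 (log2 FC 0.75), SLC6A9 (0.59) and SLC1A5 (0.24). Of 20 cytosolic aminoacyl-tRNA synthetases 8 passed the unadjusted threshold, all higher, with a median of 0.12 and GARS1 (0.42), AARS1 (0.46), YARS1 (0.38) and TARS1 (0.32) in front. Of 21 genes of the unfolded protein response 7 did, all higher, with a median of 0.10, and the chaperone HSPA5 was at 855, 892 and 866 CPM in DMSO and 2166, 999 and 1052 CPM with nilotinib. HERPUD1, MANF and XBP1 followed at log2 FCs of 0.50, 0.42 and 0.40. By library the medians of these 3 lists were 0.42, 0.021 and 0.048 for the transporters, 0.29, 0.053 and 0.077 for the synthetases and 0.25, -0.011 and 0.069 for the unfolded protein response. They became -0.012, -0.062 and -0.083 under the mitochondrial scaling, in which all genes had a median of -0.18.

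The kinases that nilotinib binds showed no called change in their own mRNA. Of the 11 listed targets 9 were tested, with a median log2 FC of 0.025. Per kilobase of exon, the highest in DMSO were PDGFRA at 21.8, MAP3K20 at 19.5, ABL1 at 19 and DDR2 at 18 CPM, followed by NQO2 at 16.8, MAPK14 at 12.2, ABL2 at 5.98, PDGFRB at 2.36 and CSF1R at 0.180 CPM. The cells thus held transcripts of several targets in the same range. With nilotinib the same measure was 18.8, 19.9, 18.1 and 21 for the first 4. PDGFRA went from 208 ± 5.29 to 179 ± 30.9 CPM (mean ± SD, n = 3; log2 FC -0.21, adjusted p = 0.499), its lowest library being nilotinib replicate 1, and DDR2 from 199.9 ± 7.12 to 234 ± 42.5 CPM (log2 FC 0.22, adjusted p = 0.392). The log2 FC of ABL1 was -0.07, ABL2 -0.07, PDGFRB -0.056, CSF1R 0.30, MAP3K20 0.025, MAPK14 0.12 and NQO2 0.082. KIT had at most 6 counts in a library. DDR1 was listed at 0 in all 6, but so was DDX39B, an RNA helicase that every cell uses and that lies on the same chromosome 6, so this 0 is not a measure of the gene.

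ABCG2, the drug efflux pump that nilotinib is known to inhibit, was at 26, 20.8 and 24.9 CPM in DMSO and 21.9, 22.3 and 21.3 CPM with nilotinib (log2 FC -0.13, SE 0.12, adjusted p = 0.776), and the groups overlapped. Its level per kilobase of exon was 4.27 and 3.90 CPM. Of 8 tested multidrug transporters 0 were called by edgeR and 1 had an unadjusted p under 0.05, ABCC2 at a log2 FC of -0.22. ABCC10 (-0.10) and ABCC1 (0.26) followed. ABCB1, the pump P-glycoprotein, had at most 6 counts in a library and was not tested.

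Other lists held 1 or a few called genes each, and 13 of the 55 called genes were on any list. The lists held 473 of the 16036 genes tested. Of all genes tested 0.243% were called higher and 0.0998% lower. At an unadjusted p under 0.05 the shares were 5.15% and 4.51%. Of 34 genes of the extracellular matrix and its proteases 1 rose, TIMP3, and 3 fell, THBS1, ADAMTS1 and ADAMTS5, with a median log2 FC of -0.092. By library that median was -0.22, -0.026 and 0.043, and without nilotinib replicate 1 it was 0.01. THBS1 was also the 1 call, a fall, among 16 YAP and TEAD targets. Their median was -0.11, and 4 of the 16 had a positive log2 FC, among them CCN1 (0.25) and AXL (0.16), the 2 higher at an unadjusted p under 0.05. The median was below 0 under all 19 alternatives, which reuse the same libraries. So were the medians of the heat shock, aryl hydrocarbon receptor, G1/S and G2/M lists. One of 17 cytokine and NF-kB feedback genes fell, CXCL8. Of 7 tested genes around the aryl hydrocarbon receptor CYP1B1 fell, 2 more were lower at an unadjusted p under 0.05, TIPARP (-0.46) and AHR itself (-0.45), and the median was -0.34. The inducible CYP1A1 was at 0.856 ± 0.0757 CPM in DMSO, with a log2 FC of 0.09.

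Among 9 tested genes of the TXNIP list, which holds arrestin-domain relatives and Mondo factors, TXNIP fell and the others were not called. ARRDC4, the relative that shares glucose control with TXNIP, was below 1 CPM in all 6 libraries, and ARRDC3 had a log2 FC of -0.34. The MAP kinase list of 21 held 1 rise, MAP2K6, the ERK feedback list of 16 held 1 rise, ETV4, and the lysosome list of 32 held 1 rise, RAB7B. In the ERK feedback list 2 genes were higher and 3 lower at an unadjusted p under 0.05, DUSP5 (0.40) beside ETV4 and SPRY1 (-0.71), SPRED3 (-0.39) and EPHA2 (-0.20), and the median was -0.0015. Of all genes tested 5.15% were higher and 4.51% lower at that threshold. Lysosomal enzymes and v-ATPase subunits were not called, the lysosome median being -0.017, with LAMP2 at 0.08 and ATP6V1A at -0.11.

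**Figure D4:**
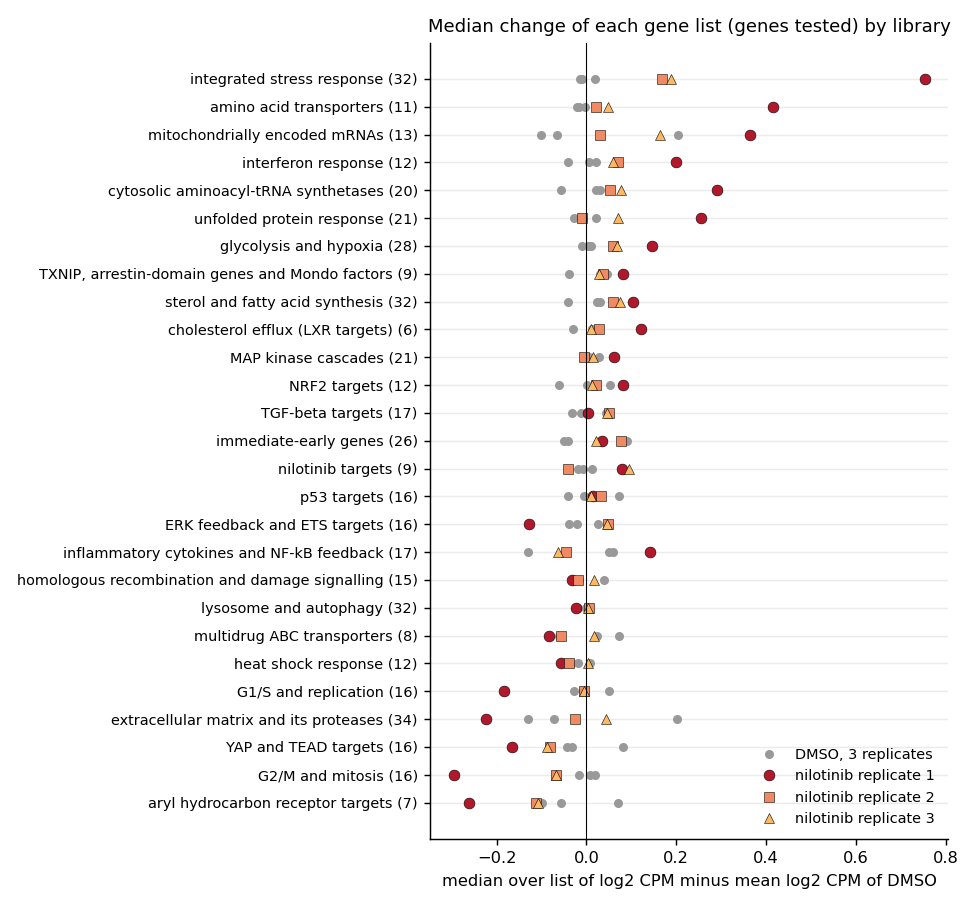
Median over each of 27 gene lists of log2 CPM minus the mean log2 CPM of DMSO, by library, with the number of genes tested in brackets. The integrated stress response median is 0.75 in nilotinib replicate 1 and 0.17 and 0.19 in replicates 2 and 3, while most other lists lie near 0.

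Cell-cycle lists had no called gene. For 16 genes of G2 and mitosis the median was -0.15, with medians of -0.30, -0.069 and -0.069 in the nilotinib libraries, and 3 were lower at an unadjusted p under 0.05, KIF20A (-0.24), TOP2A (-0.22) and BUB1 (-0.15). Of all genes tested 4.51% were lower at that threshold. For 16 genes of G1/S and replication the median was -0.036, with RRM2 at -0.23, E2F1 at 0.21, CCNE1 at -0.28 and CCNE2 at -0.21. Among 15 homologous recombination and damage genes it was -0.006, with ATM at -0.26, ATR at -0.14, BRCA2 at -0.29 and CHEK2 at 0.22. The 16 p53 targets had a median of 0.0061, with PHLDA3 at 0.31 and MDM2 at -0.17.

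The other lists without a call had medians between -0.025 and 0.13. Glycolysis and hypoxia genes (28 tested) had a median log2 FC of 0.093, with NDRG1 at 0.30, ADM at -0.38, HK1 at 0.14 and ALDOC at -1.12. Sterol and fatty acid genes (32) were at 0.06, with STARD4 at 0.33 and SCD at 0.23, and the 6 LXR targets at 0.051, with MYLIP at -0.42 and ABCA1 at 0.39. The 26 immediate-early genes had a median of 0.037, with MYC at 0.31, KLF2 at 0.41, KLF6 at 0.31 and JUND at 0.41. The 17 TGF-beta targets were at 0.043, in which TGFB2 (-0.61) and ID2 (-0.30) were lower and TAGLN (0.31) higher without passing the adjusted threshold. Medians were -0.025 for 12 heat shock genes, with HSF1 at 0.16 and HSPH1 at -0.24, 0.048 for 12 NRF2 targets, with TXNRD1 at -0.13 and HMOX1 at 0.18, and 0.13 for 12 interferon genes, with IFIT3 at 0.16 and MX1 at 0.41.

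Lapatinib, the other tyrosine kinase inhibitor given alone, was used at another dose, 3.16 against 1 µM, so the 2 drugs are set side by side as given. A direct contrast of the drugs called 145 genes, 0.904% of those tested, 88 higher and 57 lower with nilotinib. It called 22 of the 55 nilotinib genes, 19 rises that were higher and 3 falls that were lower with nilotinib than with lapatinib. These genes had been picked on the same nilotinib libraries, so this count is not independent evidence. RAB7B had a log2 FC against DMSO of 0.79 with nilotinib and -0.51 with lapatinib (difference 1.30, adjusted p = 3.73e-06). SPOCD1 was at 0.50 and -0.24 (adjusted p = 1.36e-05), SPHK1 at 0.65 and -0.10 (adjusted p = 3.39e-05), and MAP2K6 at 1.40 and -0.27 (adjusted p = 0.000274). In each of these 4 genes the lapatinib value lay below 0, but only RAB7B was called lower with lapatinib (edgeR's test against DMSO, adjusted p = 0.0467). CXCL8 had a log2 FC of -0.78 with nilotinib and -0.069 with lapatinib (adjusted p = 0.0366).

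For the stress response genes and TXNIP the direct contrast did not pass its threshold, which does not show that the drugs act alike. ATF4 had a log2 FC of 1.02 with nilotinib and 1.02 with lapatinib (difference 0.0007, SE 0.20). The nilotinib value rested largely on replicate 1 and was 0.52 without it. Its mean was 165 ± 83.1 CPM with nilotinib and 165 ± 16.5 CPM with lapatinib (SD). ADM2 had 1.33 and 1.56 (difference -0.24, SE 0.25), and JDP2 0.70 and 0.53 (difference 0.17, SE 0.13). TXNIP had -1.81 and -1.23 (difference -0.58, SE 0.32, adjusted p = 0.549), so that its nilotinib value was the lower one within a wide error. The median of the stress response list was 0.38 with nilotinib and 0.55 with lapatinib, both read against the same DMSO libraries. Without nilotinib replicate 1 the nilotinib median was 0.18. The 145 genes of the direct contrast fell to between 38 and 69 without any 1 lapatinib library, and to 55 and 53 without nilotinib replicates 2 and 3.

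**Figure D5:**
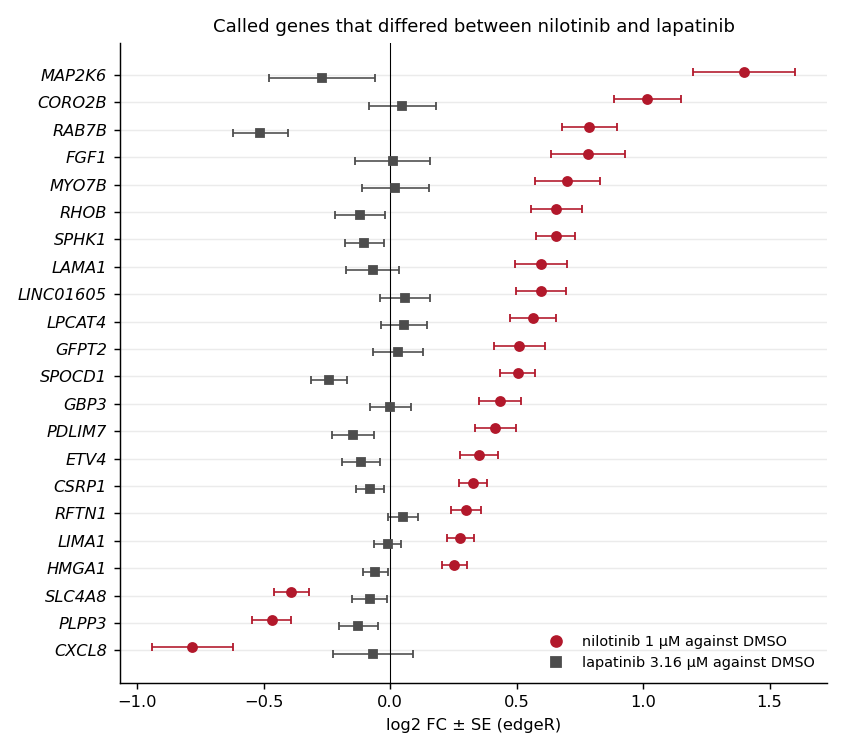
Log2 FC against DMSO with its SE for the 22 called nilotinib genes that differed between nilotinib (1 µM, circles) and lapatinib (3.16 µM, squares). Both sets of values share the DMSO libraries; lapatinib points lie near 0 for most genes, and RAB7B lies at -0.51.

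Beside 0.1 µM THZ531, the effect of nilotinib was measured as THZ531 with nilotinib against THZ531 alone, and its difference from the effect of nilotinib alone was tested as an interaction. It differed for 39 of the 55 genes, where 56.8% of all genes tested differed. ATF4 had a log2 FC of 1.02 alone and 0.76 beside THZ531 (adjusted p of the difference = 0.442), and CYP1B1 -0.78 and -1.02 (adjusted p = 0.192). TXNIP, in contrast, had -1.81 alone and 0.22 beside THZ531 (adjusted p = 0.000827), and the value beside THZ531 was not below 0. The study reports that nilotinib sensitizes these cells to THZ531. Values beside THZ531 thus also hold any stronger effect of THZ531, which cannot be told apart from nilotinib's own effect.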

How the data were processed

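Gene counts were measured by RNA sequencing in 21 libraries of 7 groups. The authors deposited raw counts per gene, not normalized; per the labels and the study's methods, filtered paired-end reads were aligned to GRCh38 with HISAT2 2.1.0 and counted with featureCounts, and DESeq2 was used for their tests. Whether ends or pairs were counted is not given in the sources used here. Counting without strand merges reads of overlapping genes. Of 28395 gene IDs, 27745 were matched to RefSeq symbols, holding 99.98% of counts.

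In R 4.3.3, genes were filtered with filterByExpr, scaled by TMM and fitted with edgeR 4.0.16 (glmQLFit, 1 mean for each group, 14 residual degrees of freedom) on all 21 libraries, which share 1 estimate of the spread. Each contrast went through glmQLFTest, with Benjamini-Hochberg adjustment over 16036 genes, and genes were called at an adjusted p under 0.05. SE is the log2 FC divided by the root of F. CPM are TMM-scaled, and log2 CPM carry a prior count of 2. Total counts were between 97612207 and 112229052 for each library, deep enough that the spread between replicates, not counting error, limits most values. Named were the called genes, the 15 largest rises and 10 largest falls by library (those averaging under 1 log2 CPM left out), the called members of each list or else up to 4 with the smallest p, and all measured nilotinib targets. The genes and lists were chosen with earlier results of these data known. A few genes that this rule names are not reported here. Alternatives were other scalings and filters, DESeq2 1.42.0, limma 3.58.1 (voom with quality weights), the 6 libraries alone, a replicate term, halved counts and each library left out. The fit was tested on simulated data.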

Additional observations from a re-analysis of the deposited data

Results flagged for a closer look

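The effect of nilotinib on 18 of the 25 genes shown by library differed with and without 0.1 µM THZ531 by a test of the difference (edgeR's quasi-likelihood test, Benjamini-Hochberg adjusted p under 0.05), 13 towards lower and 5 towards higher values. The same libraries had picked these genes, and 9106 of all 16036 genes, 56.8%, also differed, so nothing is read from the 18 as a set. The differences that follow are log2 FC of nilotinib beside THZ531 minus log2 FC of nilotinib alone. They also hold any change that nilotinib made to the effect of THZ531, which cannot be told apart from nilotinib's own effect.

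Rises that were lower or turned beside THZ531 were ARHGAP22 (-2.04), KCNG1 (-1.90), PDCD1LG2 (-1.74), LINC01605 (-1.69), RAB7B (-1.63), JDP2 (-1.38), LAMA1 (-1.31), GFPT2 (-0.83) and SPHK1 (-0.47). RAB7B, for example, had a log2 FC of 0.79 alone and -0.85 beside THZ531. Rises that were larger were RHOB (1.39) and GADD45A (1.38), which had log2 FCs of 2.04 and 2.04 beside THZ531. Falls that were larger were ADAMTS5 (-1.91), CXCL8 (-1.46), RASGRP3 (-0.76) and THBS1 (-0.73). Falls that were smaller or turned were TXNIP (2.02, adjusted p = 0.000827), SCN3A (1.04) and SLIT2 (0.59).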

How the results depend on the processing

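No called gene changed direction under any of the 19 alternatives, while 688 of 1045 gene and alternative pairs kept the call and 357 lost it. Counts of genes higher and lower were 39 and 16, and stayed within 1.5 times under DESeq2 size factors, library size, upper-quartile scaling, no filter and a minimum of 10 counts. They were 3 and 16 under mitochondrial scaling (and 16 of 145 against lapatinib), 16 and 9 in the 6 libraries alone, 198 and 76 with DESeq2, 204 and 152 with DESeq2 on 6 libraries, 523 and 341 with limma voom and quality weights, and 46 and 26 with halved counts. On all libraries DESeq2 and limma called all 55 genes, DESeq2 on 6 libraries 50 and edgeR on the 6 alone 23 of them; the causes were not tested. Without 1 library the counts ran from 6 to 63 higher and 1 to 14 lower, and they were 0 and 0 without both libraries of number 1, an alternative chosen after seeing the data, as were those leaving out lapatinib and THZ531 libraries. The lapatinib contrast ran from 38 to 114 and the THZ531 interaction from 8510 to 8976 without 1 library. Scaling moved the interaction more, to 7018 genes under mitochondrial scaling, 8203 by library size and 9674 under upper-quartile scaling. Of these, 5591, 7048 and 8400 were among the 9106 found with TMM. The replicate numbers were not taken to pair the samples, since not every correlation was over 0.1: deviations of same-numbered nilotinib and DMSO libraries correlated at 0.239, 0.215 and -0.483 over 8794 genes, and nilotinib replicate 1 correlated better with DMSO replicate 3 (0.421) than with its own number. Over all groups the mean was 0.152 for 63 same-numbered pairs (-0.830 to 0.892) and -0.0694 for 126 others. With the replicate number as a block, 61 genes were higher and 26 lower, 210 differed from lapatinib and 9347 in the interaction. Halving the counts did not lower the number called.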

Other observations

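The 13 mitochondrially encoded mRNAs all had a positive log2 FC with nilotinib under TMM scaling, with a median of 0.17, 0 called by edgeR and 4 at an unadjusted p under 0.05. ND3, a subunit of complex I, was at 453, 429.8 and 446 CPM in DMSO and 573, 493 and 549 CPM with nilotinib. By library their medians were 0.36, 0.029 and 0.16, and DMSO replicate 2 was at 0.20, above nilotinib replicates 2 and 3.

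Of 9168 genes with a level of at least 3 log2 CPM, 47 stood more than 1.5-fold higher and 12 more than 1.5-fold lower in replicate 1 than in replicates 2 and 3 of nilotinib, after the same gap in DMSO was taken off, and 11 and 4 more than 2-fold. Among the 10 widest gaps were those of TXNIP, SCRIB, SESN2, TRIB3, CD99, DDIT4, ATF4, SLC7A5 and PCK2. SCRIB was at 5.07, 11.2 and 18.1 CPM in the nilotinib libraries, where replicates 2 and 3 also lay apart, and 15.8, 13.2 and 12.7 CPM in DMSO. CD99 was at 46.9, 28.3 and 33.3 CPM with nilotinib and 23.2, 30.3 and 52.2 CPM in DMSO, so its gap also holds the spread of DMSO. TRIB3, a pseudokinase of the stress response, was at 19.4, 18.8 and 20.2 CPM in DMSO and 68.4, 24 and 24.2 CPM with nilotinib, and PCK2, mitochondrial PEP carboxykinase, at 20.1, 20.2 and 21.6 CPM in DMSO and 54.7, 24.6 and 26.1 CPM with nilotinib, with replicate 1 apart in both.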
